A study of Mus musculus with 18 samples.

Results

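Mouse induced pluripotent stem cells (riPSC) obtained from fibroblasts by chemical reprogramming were compared with embryonic stem cells (mESC) grown in the same medium. The comparison rests on the 4 libraries that the sample titles assign to these groups, 2 riPSC and 2 mESC, out of 18 in the series. The riPSC descended from embryonic fibroblasts of the strain given as 129XOG2, taken from E13.5 embryos and labelled OG2, and the composition of the reprogramming medium is not given in the sources used here. The mESC were the R1 line, with a mouse blastocyst given as the source. Both were kept on feeder cells in a serum-free basal medium with N2 and B27 supplements, the MEK inhibitor PD0325901 at 0.2 µM, the GSK3 inhibitor CHIR99021 at 3 µM and leukaemia inhibitory factor (mLIF) at 1000 units/mL. The other 7 groups, also of 2 libraries each, were the fibroblasts (D0) and cells on days 2, 4, 6, 8, 10 and 12 of reprogramming (D2 to D12). How many riPSC lines or clones were sampled, and whether the 2 libraries of a group came from different cultures, is not in the labels. The p-values therefore reflect no more than the spread among these libraries, part or all of which may be technical. Genetic background, cell of origin and line history differ between the groups together and cannot be told apart.

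Pluripotent cells of the early embryo are held in the naive state by a network of transcription factors around Oct4 (Pou5f1), Sox2 and Nanog. Leukaemia inhibitory factor sustains that network through STAT3, GSK3 inhibition mimics Wnt signalling, and MEK inhibition blocks the FGF and ERK signal that otherwise pushes cells towards differentiation. Cells in this medium carry little DNA methylation, and genes that methylation keeps silent in somatic cells, among them germline and imprinted genes, are where independently derived pluripotent lines are often compared.

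Sequencing depth was similar in the 4 libraries, at an estimated 19.7 and 18 M read pairs for riPSC and 19 and 19.3 M for mESC. Values are FPKM, fragments scaled by transcript length and by the mapped total of the library. Genes encoded by mitochondrial DNA made up 28.1% and 27.0% of the FPKM sum in riPSC and 35.1% and 35.8% in mESC. Ribosomal protein genes made up 11.7% and 11.7% in riPSC and 10.0% and 9.75% in mESC, and the part of either difference in single-gene results was not tested beyond the rescaling described with the alternatives. Both cell populations carried Y-linked transcripts: Ddx3y measured 11.7 and 12.9 FPKM in riPSC and 7.67 and 9.26 FPKM in mESC, and Xist lay between 0.10 and 0.173 FPKM in all 4 libraries.

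The riPSC and mESC transcriptomes were close to each other. Across the 16439 genes with at least 1 FPKM in at least 2 libraries of the series, the Pearson correlation of log2(FPKM + 1) between an riPSC and an mESC library was 0.9718 to 0.975, against 0.9937 between the riPSC libraries, 0.9925 between the mESC libraries and 0.7742 to 0.7758 between riPSC and D12. These correlations are across genes, which are not independent replicates. The median absolute difference between group means was 0.19 on the log2 scale, and that between replicates was 0.10 in riPSC and 0.14 in mESC. A gene was called when limma's adjusted p was under 0.05 and the difference was at least 2-fold on the log2(FPKM + 1) scale, which understates the change of low genes, and "higher" and "lower" refer to riPSC relative to mESC. By that rule 500 genes were called, 3.04% of those tested, with 303 higher (1.84%) and 197 lower (1.2%). The 95% interval of the difference lay wholly within 2-fold for 13851 genes, or 84.3%. Both riPSC libraries lay above both mESC libraries for 5443 of the 16439 genes and below both for 4343. By limma 2076 of the 16439 genes had an adjusted p under 0.05 at any fold, and 3892 had an unadjusted p under 0.05. These counts are the background for those given for lists below.

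**Figure D1:**
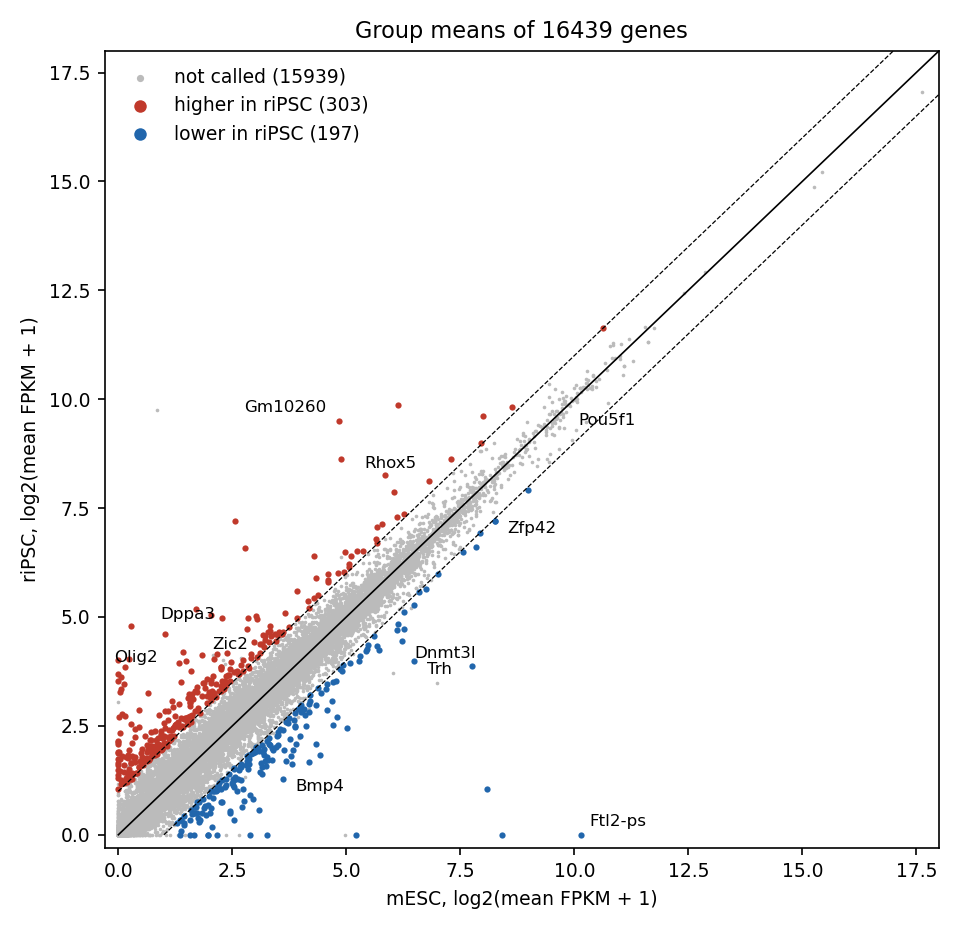
Each point is 1 of 16439 genes, with its mean level in mESC on the horizontal axis and in riPSC on the vertical axis, both as log2(mean FPKM + 1). The solid line marks equality and the dashed lines a 2-fold difference on that scale. Most points lie between the dashed lines, with 303 genes called above and 197 called below.

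The share of genes expressed in the fibroblasts of origin was lower among called genes than among all genes tested, which are not a like set. The D0 mean reached 1 FPKM for 36.6% of the higher genes and 51.8% of the lower genes, against 61.1% of all genes tested. The same shares at D12 were 56.4%, 64.5% and 78.3%. Of the 303 higher genes, 120 had an mESC mean under 1 FPKM, and 54 of the 197 lower genes had an riPSC mean under 1 FPKM. No test was made of these shares. The filter counted all 18 libraries, and 13079 of the 16439 genes tested had a mean of at least 1 FPKM in riPSC or mESC. Genes low in both populations could hardly be called but count in the shares over all genes, so no conclusion is drawn from the gap.

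The central pluripotency genes differed by less than 2-fold between the populations. None of the 20 tested genes of a list of core and general pluripotency genes was called, and the 95% interval lay within 2-fold for all 20. By limma, 6 of the 20 had an adjusted p under 0.05 without reaching 2-fold (12 at an unadjusted p under 0.05). Among all 16439 genes tested, 2076 and 3892 passed these p limits at any fold. The median difference of the list was 0.03 against 0.01 for all genes tested. Pou5f1, which encodes Oct4, measured 910.25 and 969.55 FPKM in riPSC and 855 and 941 FPKM in mESC, with overlapping groups and a log2 difference of 0.07 ± 0.09 (SE from the fit of all 18 libraries, 2 per group). Sox2, its partner on DNA, measured 234 and 257 FPKM in riPSC and 234 and 258 FPKM in mESC, where the interval of the difference ran from -0.41 to 0.41. Nanog, a stabiliser of the naive network, measured 273 and 275 FPKM in riPSC and 239.7 and 267 FPKM in mESC, with an interval from -0.08 to 0.31. The widest differences among the 20 were those of Epcam, an adhesion molecule, at -0.57, and of the imprint-protecting zinc finger Zfp57 at -0.53.

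Naive factors divided into a large group without a call and a pair of genes that went opposite ways. Of the 20 naive factors tested, 1 was higher and 1 was lower, together 10.0% against 3.04% of all genes. Intervals lay within 2-fold for 16, including Esrrb, Klf4, Tfcp2l1 and Prdm14. Dppa3 (also called Stella), which protects the maternal genome from demethylation in the zygote and is transcribed in a fraction of naive cells, lies on chromosome 6 at 122626410 to 122630272 (mm10). It measured 23.3 and 23.7 FPKM in riPSC and 0.907 and 1.13 FPKM in mESC. Its log2 difference of 3.60 ± 0.10 (adjusted p = 4.35e-10, limma) corresponds to a ratio of mean FPKM of 23.1, and its mean was 30.0 FPKM at D12 and 0 at D0. Zfp42 (Rex1), a naive marker on chromosome 8, measured 145 and 148 FPKM in riPSC and 289 and 321 FPKM in mESC, a difference of -1.05 ± 0.13 (adjusted p = 1.42e-04, limma). The groups do not overlap for Zfp42, but without mESC replicate 2 the difference was -0.975 and fell short of the 2-fold limit. Gbx2, a factor that LIF signalling induces, stood just outside the call at -0.99, with 5.51 and 5.70 FPKM in riPSC and 12.24 and 11.9 FPKM in mESC. It passed 2-fold without riPSC replicate 2 (-1.006) or without mESC replicate 2 (-1.003), and under 3 of the scalings (-1.001 to -1.038).

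**Figure D2:**
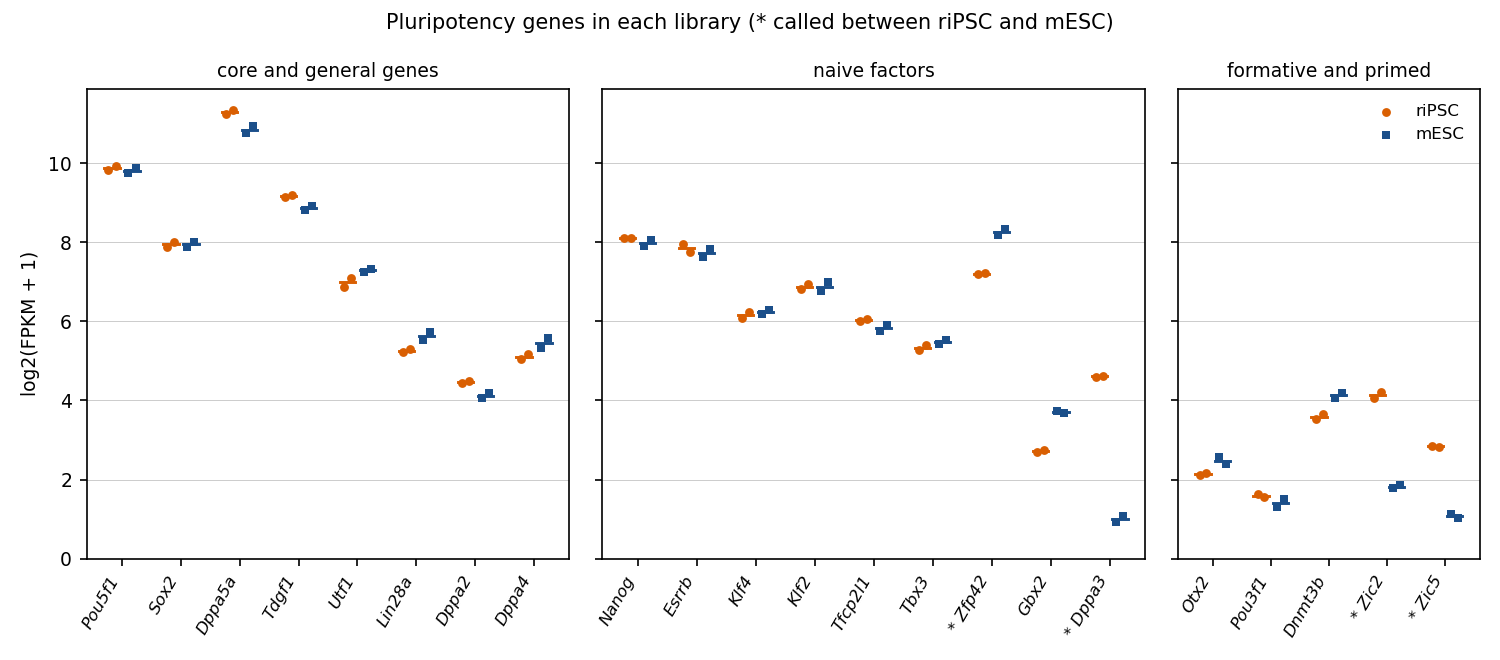
Levels of pluripotency genes in each library, as log2(FPKM + 1), with circles for the 2 riPSC libraries, squares for the 2 mESC libraries and bars for group means. Asterisks mark the genes called, which are Zfp42, Dppa3, Zic2 and Zic5. Pou5f1 and Sox2 overlap between the groups, and Nanog lies slightly higher in both riPSC libraries without a call. Dppa3 lies near 4.6 in riPSC and near 1 in mESC.

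Among 15 tested genes of the formative and primed states, which follow the naive state, 2 were higher and none was lower, 13.3% against 3.04% of all genes. Both belong to the Zic family of zinc finger transcription factors and are neighbours on chromosome 14. Zic2 measured 15.6 and 17.4 FPKM in riPSC and 2.43 and 2.65 FPKM in mESC, a difference of 2.30 ± 0.15 (adjusted p = 6.55e-07, limma). Zic5 measured 6.26 and 6.13 FPKM in riPSC and 1.18 and 1.05 FPKM in mESC, and neither gene reached 0.1 FPKM at D12. Clybl and Pcca, metabolic enzyme genes on either side of that pair, were also higher, by 1.39 and 1.32 on the log2 scale, and were chosen after their values were seen. Otx2, a hallmark of the formative state, was not called, with 3.34 and 3.47 FPKM in riPSC and 4.96 and 4.22 FPKM in mESC. Of 10 tested genes of the primitive streak and germ layers, only T (Brachyury), described with the Wnt genes, was called, 10.0% against 3.04% of all genes. Fgf5, a primed marker, did not pass the filter on low values.

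Germline genes were called often, and mostly in the direction of riPSC. Of 29 tested genes that DNA methylation keeps silent outside the germline, 5 were higher (Ddx4, Mael, Rhox5, Hormad1 and Gtsf1) and 2 were lower (Magea4 and Zfp42), together 24.1% against 3.04% of all genes. The list median was 0.24 against 0.01, with both riPSC libraries above both mESC libraries for 15 genes and below them for 9. Over all 16439 genes tested these counts were 5443 and 4343. Dmc1, Dmrt1 and Tdrd12, which are not on that list and were chosen after their values were seen, were higher too.

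A repressive polycomb complex that silences germline genes in pluripotent cells contains MGA with MAX, which bind the E-box CACGTG, and an E2F protein, which binds GCGGGAA. The RefSeq promoters (GRCm38.p6, 250 bases before to 50 bases after the start) of 7 of the germline genes that were higher were searched for both motifs on either strand. The E-box occurs in 7.15% and GCGGGAA in 4.6% of 32851 promoters of that length. Promoters of Ddx4, Mael and Hormad1 hold at least 1 of them and are shown because these genes were all higher. Those of Gtsf1, Stra8, Dmc1 and Rhox5 hold neither in this window, but the RefSeq window of Rhox5 lies far upstream of the annotated start of the measured gene and that of Stra8 lies within the annotated gene. The motifs are in capitals, and each sequence is given 5′ to 3′ on the gene's own strand.
Ddx4, chr13:112652261-112652560, minus strand: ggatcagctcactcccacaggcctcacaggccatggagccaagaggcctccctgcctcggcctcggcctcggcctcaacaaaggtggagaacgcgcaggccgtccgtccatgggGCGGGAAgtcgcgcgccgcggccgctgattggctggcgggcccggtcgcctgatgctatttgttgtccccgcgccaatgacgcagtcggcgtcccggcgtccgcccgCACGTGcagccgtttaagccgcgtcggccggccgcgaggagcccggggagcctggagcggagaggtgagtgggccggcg
Mael, chr1:166238695-166238994, minus strand: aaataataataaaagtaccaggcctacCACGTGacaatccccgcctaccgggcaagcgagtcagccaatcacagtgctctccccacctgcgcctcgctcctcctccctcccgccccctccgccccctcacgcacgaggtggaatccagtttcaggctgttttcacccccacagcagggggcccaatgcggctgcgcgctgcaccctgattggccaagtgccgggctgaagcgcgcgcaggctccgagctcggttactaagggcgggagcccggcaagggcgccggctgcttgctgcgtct
Hormad1, chr3:95559427-95559726, plus strand: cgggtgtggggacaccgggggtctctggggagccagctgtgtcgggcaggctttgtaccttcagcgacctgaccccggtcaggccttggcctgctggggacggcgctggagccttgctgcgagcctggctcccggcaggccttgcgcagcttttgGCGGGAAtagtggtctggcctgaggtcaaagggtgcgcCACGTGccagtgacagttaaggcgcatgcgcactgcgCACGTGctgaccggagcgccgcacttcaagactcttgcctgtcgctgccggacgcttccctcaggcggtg
These promoters hold 38, 24 and 24 CpG dinucleotides in 300 bases, and those of Gtsf1, Stra8, Dmc1 and Rhox5 hold 13, 10, 18 and 5, against a median of 7 over all promoters. Both motifs searched here contain a CpG themselves.

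Most of the germline genes that were higher, Rhox5 apart, were transcribed at modest levels in both populations. Ddx4 (Vasa), an RNA helicase of germ cells, measured 6.47 and 6.92 FPKM in riPSC and 1.49 and 1.09 FPKM in mESC, a difference of 1.75 ± 0.13 (adjusted p = 2.62e-06, limma). Mael, which acts in transposon silencing, measured 8.099 and 9.44 FPKM in riPSC and 2.43 and 2.15 FPKM in mESC. Hormad1, a component of the meiotic chromosome axis, measured 20.8 and 21.7 FPKM in riPSC and 8.13 and 8.37 FPKM in mESC. In each of these 3 genes the groups are well apart, and the D12 mean was between 0.232 and 0.589 FPKM, below either stem cell population.

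Stra8, the meiosis-entry factor that retinoic acid induces, measured 4.37 and 5.13 FPKM in riPSC and 1.22 and 1.49 FPKM in mESC. Dmc1, the meiotic recombinase, measured 9.34 and 9.58 FPKM in riPSC and 2.35 and 2.22 FPKM in mESC. Gtsf1, a cofactor of piRNA-guided silencing, measured 5.13 and 5.57 FPKM in riPSC and 1.80 and 1.64 FPKM in mESC. Rhox5, an X-linked homeobox gene expressed in the placenta and testis, was far more abundant, with 283 and 273 FPKM in riPSC and 109.8 and 115 FPKM in mESC, and it alone of these was also high at D12 (257 FPKM). The direction was not shared by the whole list: Magea4, an X-linked cancer-testis gene, measured 1.58 and 2.36 FPKM in riPSC and 8.23 and 8.63 FPKM in mESC, and Dazl and Stag3 had intervals within 2-fold. Of 12 tested markers of primordial germ cells, the embryonic precursors of gametes, 3 were higher (Dppa3, Ddx4 and Stra8) and none was lower, 25.0% against 3.04% of all genes. Prdm1, the factor that specifies these cells, differed by -0.03.

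**Figure D3:**
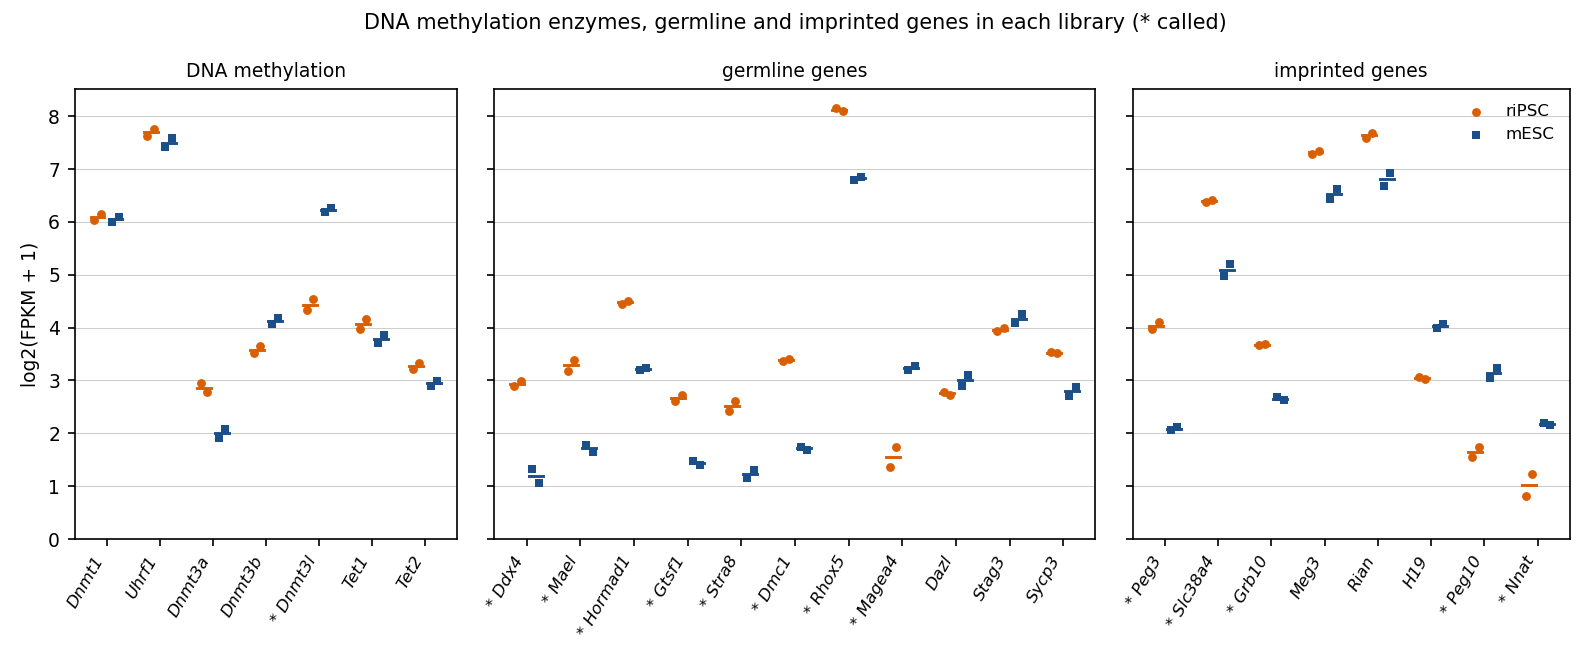
Levels in each library as log2(FPKM + 1), with circles for riPSC, squares for mESC and bars for group means, for genes of DNA methylation, germline genes and imprinted genes. Asterisks mark the genes called. The 7 germline genes from Ddx4 to Rhox5 lie higher in riPSC, Magea4 lies lower, and Dnmt3l is the methylation gene with the widest gap.

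Among the genes that write and erase DNA methylation, Dnmt3l had the widest difference on the lower side. Dnmt3l, the catalytically inactive partner of the de novo methyltransferases, measured 19.1 and 22.2 FPKM in riPSC and 71.5 and 75.6 FPKM in mESC, a difference of -1.79 ± 0.15 (adjusted p = 8.93e-06, limma). The catalytic partners were not called: Dnmt3a measured 6.74 and 5.87 FPKM in riPSC and 2.76 and 3.25 FPKM in mESC, a difference of 0.87 (adjusted p = 0.0287, limma), and Dnmt3b differed by -0.54 (adjusted p = 0.00301). The maintenance methylation genes Dnmt1 and Uhrf1 differed by 0.05 and 0.20, and among the demethylating enzymes Tet1 and Tet2 differed by 0.28 and 0.33. Of the 17 genes of this list 2 were higher and 1 was lower, together 17.6% against 3.04% of all genes. By limma 6 had an adjusted p under 0.05, and 11 had intervals within 2-fold. Beside Dppa3, the other higher member was Tdg, a DNA glycosylase, but it has 3 near-identical copies, and summed over copies its level differed by 0.10. Of 30 tested polycomb and H3K9 methylation genes none was called by limma, 4 had an unadjusted p under 0.05, and 29 had intervals within 2-fold.

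Imprinted genes, of which only the maternal or the paternal copy is normally transcribed, differed in both directions. Of 42 tested, 4 were higher (Peg3, Slc38a4, Peg12 and Grb10) and 2 were lower (Peg10 and Nnat), together 14.3% against 3.04% of all genes, with a median of 0.04. Peg3, a paternally expressed zinc finger gene on chromosome 7, measured 14.7 and 16.1 FPKM in riPSC and 3.16 and 3.36 FPKM in mESC, a difference of 1.95 ± 0.29 (adjusted p = 6.96e-04, limma). Slc38a4, a paternally expressed amino acid transporter, measured 82.1 and 84.5 FPKM in riPSC and 30.3 and 36.0 FPKM in mESC. Peg10, a paternally expressed gene derived from a retrotransposon, measured 1.92 and 2.36 FPKM in riPSC and 7.24 and 8.38 FPKM in mESC. For these 3 genes the groups do not overlap. The call of Peg10 was lost without riPSC replicate 1 (-1.39) or without mESC replicate 2 (-1.40), and that of Nnat without riPSC replicate 1 (-0.95), without mESC replicate 1 (-1.13) or without mESC replicate 2 (-1.17). Grb10 fell under 2-fold when the libraries were scaled by the median of ratios (0.98), by quantiles (0.96) or with the length trend removed (0.91), and Peg12 did so with quantiles (0.97).

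The Dlk1-Dio3 and H19-Igf2 clusters have been used as indicators of how complete reprogramming is. Meg3, the maternally expressed long non-coding RNA of the Dlk1-Dio3 cluster on chromosome 12, measured 155 and 162 FPKM in riPSC and 85.2 and 98.1 FPKM in mESC. Its neighbour Rian measured 192 and 205 FPKM in riPSC and 101 and 121 FPKM in mESC. Both were thus well expressed in riPSC and neither was called, with adjusted p of 0.131 and 0.131 by limma. H19, the maternally expressed RNA of the other cluster, measured 7.38 and 7.17 FPKM in riPSC and 14.99 and 15.7 FPKM in mESC, a difference of -0.98 that missed the 2-fold limit, and it passed that limit without riPSC replicate 1 (-1.0007) or without mESC replicate 1 (-1.015), or when rescaled without mitochondrial genes (-1.004). Igf2, the paternally expressed growth factor beside it, was at 0.558 and 0.689 FPKM in riPSC and 1.33 and 1.60 FPKM in mESC, where the D0 mean was 299 FPKM.

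The BMP ligand gene Bmp4 and its targets Id1 and Id3 were lower in riPSC, and other genes of the pathway lay on both sides without a call. Of 20 tested genes of the Nodal, activin and BMP pathways, none was higher and 3 were lower, against 3.04% called among all genes. The list median was 0.17, with both riPSC libraries above both mESC libraries for 11 genes and below them for 7. Over all 16439 genes tested these counts were 5443 and 4343. Bmp4, the ligand that supports self-renewal of embryonic stem cells through Id proteins, measured 1.37 and 1.49 FPKM in riPSC and 10.3 and 12.199 FPKM in mESC, a difference of -2.33 ± 0.37 (adjusted p = 1.17e-03, limma). Id1, an inhibitor of differentiation that BMP signalling induces, measured 2.33 and 3.44 FPKM in riPSC and 12.6 and 13.9 FPKM in mESC. Id3, its paralogue with the same role, measured 2.79 and 3.65 FPKM in riPSC and 12.8 and 15.2 FPKM in mESC. The libraries of the 2 groups are several-fold apart for the ligand and for both targets. All 3 genes were also expressed in the fibroblasts, with D0 means of 14.5 FPKM for Bmp4, 206 FPKM for Id1 and 201 FPKM for Id3. Fibroblast markers, given with those of the other cell types, had a median difference of -0.52, with 25 of 30 lower in both riPSC libraries, and their part in these results was not tested. The receptor gene Bmpr1a differed by 0.19, and the BMP-responsive genes Id4, Smad6 and Bambi by 0.23, 0.33 and 0.45, none of them called. Id2 and Smad7 of the same list lay lower without a call, from -1.05 to -0.27 and from -0.28 to -0.13 over the alternatives. Nodal itself measured 21.4 and 22.3 FPKM in riPSC and 21.99 and 22.4 FPKM in mESC. Its inhibitors Lefty1 and Lefty2 differed by 0.77 and -0.80 and the activin receptor gene Acvr2b by 0.71, without a call.

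Among 19 tested Wnt pathway genes, 3 were lower (15.8% against 3.04% of all genes), none was higher, and the list median was 0. Sp5 and T, direct targets of beta-catenin with TCF/LEF factors, had the widest differences. Their RefSeq promoters (GRCm38.p6) were searched for the TCF/LEF motifs CTTTGAT and CTTTGAA on either strand, which occur in 3.73% and 5.14% of all promoters of that length. Each holds 1 match, in capitals below, and the match in T is on the opposite strand.
Sp5, chr2:70474673-70474972, plus strand: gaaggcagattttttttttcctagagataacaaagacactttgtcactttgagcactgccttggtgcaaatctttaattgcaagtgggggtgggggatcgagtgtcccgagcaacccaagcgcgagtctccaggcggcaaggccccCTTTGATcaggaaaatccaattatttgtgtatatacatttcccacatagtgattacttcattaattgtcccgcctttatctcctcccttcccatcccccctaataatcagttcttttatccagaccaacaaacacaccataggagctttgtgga
T, chr17:8434173-8434472, plus strand: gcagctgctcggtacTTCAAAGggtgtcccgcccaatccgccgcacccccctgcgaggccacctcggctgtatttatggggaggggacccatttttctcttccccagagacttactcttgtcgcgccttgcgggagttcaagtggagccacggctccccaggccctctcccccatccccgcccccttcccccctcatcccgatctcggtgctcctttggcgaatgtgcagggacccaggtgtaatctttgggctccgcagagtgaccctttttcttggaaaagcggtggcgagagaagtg
Sp5, a transcription factor that Wnt signalling switches on, measured 0.737 and 1.04 FPKM in riPSC and 6.47 and 6.39 FPKM in mESC, a difference of -1.98 ± 0.22 (adjusted p = 7.21e-05, limma). T, the primitive streak factor Brachyury, measured 0.374 and 0.165 FPKM in riPSC and 2.35 and 2.52 FPKM in mESC. Notum, a secreted enzyme that inactivates Wnt ligands, measured 3.36 and 4.35 FPKM in riPSC and 11.2 and 9.54 FPKM in mESC, and its call was lost without riPSC replicate 1 (-1.08, adjusted p = 0.0541, limma). The broad feedback gene Axin2 was not called, with 5.51 and 5.73 FPKM in riPSC and 7.48 and 8.87 FPKM in mESC. Ctnnb1, which encodes beta-catenin, differed by -0.06, and Cdx1 by 0.05.

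Genes that report FGF and ERK activity lay mostly on the lower side in riPSC, with few calls. Of 22 tested, none was higher and 2 were lower, 9.09% against 3.04% of all genes. The list median was -0.33, and both riPSC libraries lay below both mESC libraries for 16 genes and above them for 5. Over all 16439 genes tested these counts were 4343 and 5443. Myc, a growth regulator downstream of ERK and Wnt, measured 1.08 and 1.03 FPKM in riPSC and 5.05 and 6.28 FPKM in mESC, a difference of -1.69 ± 0.21 (adjusted p = 2.07e-04, limma). Spry4, a feedback inhibitor of receptor tyrosine kinases, measured 2.105 and 2.096 FPKM in riPSC and 6.09 and 6.47 FPKM in mESC. The ERK-induced factors Etv4 and Etv5 differed by -0.55 and -0.53, the phosphatase Dusp6 by -0.52 and the feedback gene Spred1 by -0.91, none of them called. The ligand gene went the other way without a call: Fgf4 measured 105 and 106 FPKM in riPSC and 65.8 and 75.2 FPKM in mESC. Dusp9, an X-linked ERK phosphatase, was higher, with 55.0 and 61.5 FPKM in riPSC and 18.6 and 19.9 FPKM in mESC (1.55 ± 0.17, adjusted p = 6.94e-05, limma). None of 17 LIF and STAT3 pathway genes was called by limma (3 had an unadjusted p under 0.05), and Stat3 and Socs3 differed by -0.02 and -0.09.

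**Figure D4:**
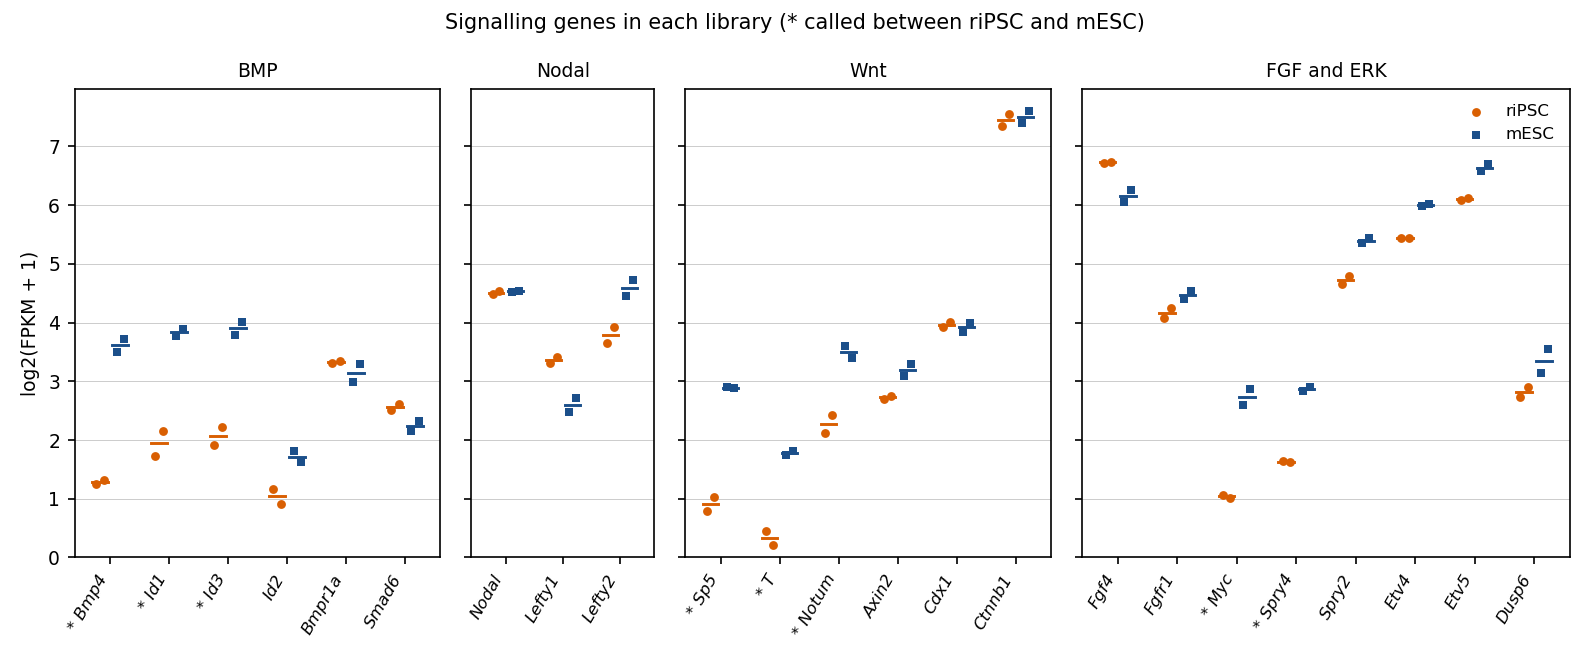
Levels of BMP, Nodal, Wnt, and FGF and ERK pathway genes in each library, as log2(FPKM + 1), with circles for riPSC, squares for mESC and bars for group means. Asterisks mark the genes called, all of which lie lower in riPSC. Nodal, Ctnnb1 and Cdx1 coincide in the groups.

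Outside these lists, wide differences were found for the neighbouring Olig genes, for Apoa2 and for loci of the major histocompatibility region. Olig2 and Olig1, neighbouring genes on chromosome 16 for transcription factors of the oligodendrocyte and motor neuron lineages, measured 11.1 and 12.7 FPKM and 9.36 and 10.7 FPKM in riPSC. In mESC Olig2 was listed at 0 in both libraries and Olig1 measured 0.0368 and 0.138 FPKM, and both were at or under 0.04 FPKM on average at D0 and D12. Among 7 tested neural markers none was called by limma, and 3 had an unadjusted p under 0.05, against 3892 of all 16439 genes. Hesx1, a homeobox repressor of the anterior embryo chosen after its values were seen, measured 7.88 and 6.97 FPKM in riPSC and 1.27 and 1.26 FPKM in mESC. Apoa2, an apolipoprotein gene, measured 12.9 and 13.9 FPKM in riPSC and 0.0858 and 0.133 FPKM in mESC.

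On chromosome 17, H2-Q4, a non-classical class I histocompatibility gene, measured 14.6 and 15.1 FPKM in riPSC and 1.73 and 1.87 FPKM in mESC. H2-Bl, a class I locus annotated as a polymorphic pseudogene, measured 32.3 and 38.0 FPKM in riPSC and 2.21 and 2.27 FPKM in mESC. Gm8909, annotated as protein-coding, and Gm10499, a transcribed pseudogene, lie between 36141758 and 36168537 (mm10) and were higher by 3.56 and 4.53 on the log2 scale. The classical gene H2-K1 (0.62) and B2m (-0.60), the shared light chain of class I molecules, were not called. Class I genes are highly polymorphic between strains, and how reads of the 129XOG2 and R1 genomes align to the reference was not tested. Of 30 tested interferon and antigen presentation genes 2 were higher (H2-Q4 and Ifi27) and 1 was lower (Oas2), together 10.0% against 3.04% of all genes. The call of Ifi27 was lost without mESC replicate 1 (0.99).

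On the lower side, Trh, the precursor of thyrotropin-releasing hormone, measured 15.1 and 14.5 FPKM in riPSC and 85.1 and 93.0 FPKM in mESC, a difference of -2.51 ± 0.10 (adjusted p = 7.25e-09, limma). Nkx6-2, a homeobox gene of the neural tube, measured 2.09 and 2.32 FPKM in riPSC and 17.3 and 16.9 FPKM in mESC. Pglyrp1, a peptidoglycan recognition protein, measured 2.05 and 3.09 FPKM in riPSC and 19.2 and 21.5 FPKM in mESC. Tgm1, a transglutaminase of epithelia, and Emp1, an epithelial membrane protein, were lower by 2.24 and 2.07 on the log2 scale. For each of these genes the groups are widely apart, and Trh and Nkx6-2 had a D12 mean of 0.0634 and 1.41 FPKM.

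Chac1, Trib3, Ddit3 and Mt2, which cellular stress induces, were higher in riPSC. Of 27 tested genes of metallothionein, oxidative stress and protein folding stress, 5 identifiers were higher and 1 was lower, 22.2% against 3.04% of all genes, and the median was 0.17. Of these, 1 higher identifier and the lower one are overlapping entries for Nnt, whose sum differed by less than 2-fold. Chac1, a glutathione-degrading target of ATF4, measured 25.7 and 27.4 FPKM in riPSC and 9.58 and 8.62 FPKM in mESC, a difference of 1.45 ± 0.19 (adjusted p = 3.04e-04, limma). Trib3, a pseudokinase target of ATF4, measured 40.1 and 45.0 FPKM in riPSC and 18.1 and 18.9 FPKM in mESC, and Ddit3 (CHOP), a stress-induced transcription factor, was higher by 1.04. Atf4 itself was not called, with 215 and 227 FPKM in riPSC and 110.1 and 126 FPKM in mESC. Its targets Asns, which makes asparagine, and Sesn2 differed by 0.30 and 0.44 without a call, and the cystine transporter Slc7a11 differed by 0.03. Genes with roles in amino acid supply, chosen after their values were seen, were also higher: the transporters Slc1a5 (126.8 and 139.9 FPKM in riPSC, 47.6 and 52.6 FPKM in mESC) and Slc1a4 (1.11 on the log2 scale), the proline synthesis enzyme Pycr1 (1.12) and the mitochondrial Pck2 (1.24). The stress-induced genes Ddit4, Nupr1 and Stc2, chosen in the same way, were higher by 1.34, 1.52 and 1.25. The calls of Pycr1 and Ddit4 were lost without any 1 of the 4 libraries, and that of Pck2 without riPSC replicate 2 (1.09) or without mESC replicate 1 (0.96). Among genes of the endoplasmic reticulum response, the chaperone Hspa5 differed by -0.08 and Herpud1 by 0.51, without a call. Mt2, a metal-binding metallothionein, measured 911 and 906 FPKM in riPSC and 374 and 421 FPKM in mESC.

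Markers of other cell types are relevant because both populations were grown on feeder cells, and in bulk RNA fewer cells of a type and less RNA per cell cannot be told apart. Of 30 tested fibroblast markers none was higher and 4 were lower (Col6a2, Col5a1, S100a4 and Thy1), 13.3% against 3.04% of all genes. The median was -0.52, and both riPSC libraries lay below both mESC libraries for 25, against 4343 of all 16439 genes. Col1a1, the main fibrillar collagen, measured 33.8 and 36.5 FPKM in riPSC and 68.3 and 72.9 FPKM in mESC, against a D0 mean of 402 FPKM. It was not called (-0.99) but passed 2-fold under 4 other scalings (-1.003 to -1.077). Thy1 measured 2.36 and 2.602 FPKM in riPSC and 6.23 and 5.86 FPKM in mESC. Acta2 (-1.75) and Tagln (-1.28) were not called in the main fit. With only the 4 libraries in the fit both were called lower (adjusted p = 0.026 and 0.020, limma), while S100a4 lost its call (adjusted p = 0.0503, limma). Acta2 and Tagln were also called lower without the D0, D2 and D4 libraries. The summed level of the list was 639 and 692 FPKM in riPSC and 708 and 785 FPKM in mESC. Fn1 and Sparc, which stem cells also express, were at 186 and 201 and at 184 and 198 FPKM in riPSC. Lmna, Anxa2, S100a6, S100a10, Lgals3 and Cav1, genes of mesenchymal and epithelial cells chosen after their values were seen, were lower by 1.08 to 1.54 on the log2 scale. The part of feeder or differentiated cells in the lower calls was not tested. D0 means were 1 FPKM or more for 51.8% of the lower genes, against 61.1% of all genes tested. Under removal of the length trend 7 fibroblast markers were lower, and calls were lost for S100a4 without riPSC replicate 2 (-0.86) or without mESC replicate 1 (-0.998), for Thy1 without riPSC replicate 1 (-0.97) or without mESC replicate 1 (-0.98), for Col5a1 without mESC replicate 2 (-0.998), and for Col6a2 and Cav1 without any 1 of the 4 libraries.

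Myeloid markers were at low levels in both groups, with 2 of 13 called lower (Lyz2 and C1qc), 15.4% against 3.04% of all genes. Their summed level was 48.6 and 49.5 FPKM in riPSC and 90.9 and 93.5 FPKM in mESC, most of it from Laptm5. The call of C1qc was lost without mESC replicate 1 (-0.94). Extraembryonic endoderm markers gave 1 higher (Rhox5) and 2 lower (Lama1 and Cited1) of 20 tested, against 3.04% called among all genes. The defining factors Gata4, Gata6 and Sox17 were at or under 1.16 FPKM in all 4 libraries, where Gata4 had a D12 mean of 120.4 FPKM. Of 13 trophoblast markers 3 were higher (Gata2, Krt7 and Esx1) and 2 were lower (Krt19 and Krt8), together 38.5% against 3.04% of all genes, the largest share of the 34 lists. Cdx2 was listed at 0 in all 4 libraries. The 3 higher trophoblast calls did not hold with median-of-ratios scaling or quantile normalization, and the call of Gata2 was lost without any 1 of the 4 libraries, and those of Krt7 and Esx1 without riPSC replicate 2 (0.96 and 0.93) or without mESC replicate 2 (0.96 and 0.89). Of 9 endothelial and 13 striated muscle markers none was called by limma, with 6 and 1 at an unadjusted p under 0.05. That limit was passed by 3892 of all 16439 genes tested.

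Lists of broad cellular programmes had no 2-fold calls, though several lay mostly on 1 side. By limma no gene was called among 31 of glycolysis, 34 nuclear genes of the respiratory chain, 29 of the cell cycle, 23 of cholesterol synthesis and 34 of the Hox clusters. At an unadjusted p under 0.05 there were 6, 2, 5, 8 and 1 of them, against 3892 of all genes tested. The 39 listed Hox genes, untested ones included, summed to 14.5 and 14.8 FPKM in riPSC and 12.6 and 14.1 FPKM in mESC. At such levels the 1 FPKM added before the log leaves little room for a 2-fold call. Intervals lay within 2-fold for all 34 respiratory chain genes and for 28 of the 29 cell cycle genes. Both riPSC libraries lay above both mESC libraries for 14 glycolysis genes and below for 2, and for cholesterol synthesis these counts were 15 and 5, with 5 genes at an adjusted p under 0.05. Over all 16439 genes tested the counts were 5443 above and 4343 below. None of 10 genes encoded by mitochondrial DNA was called or had an unadjusted p under 0.05 by limma, with a median of -0.35 with both riPSC libraries below both mESC libraries for 8 and above for 0. Of 24 cell cycle inhibitors and p53 targets 1 was higher, Pmaip1 (Noxa), an apoptosis inducer at 11.1 and 10.7 FPKM in riPSC and 2.96 and 2.79 FPKM in mESC, and 1 was lower, Perp, whose call was lost without any 1 of the 4 libraries. Together they made up 8.33% of that list, against 3.04% of all genes. The 2-cell-like genes, which mark a rare cell state resembling the 2-cell embryo, had no call by limma among 11 tested, but 6 had an adjusted p under 0.05 (8 an unadjusted p under 0.05). Their median was 0.34, both riPSC libraries lay above both mESC libraries for 8 and below for 0, and the summed level of all listed genes, untested ones included, was 10.21 and 11.1 FPKM in riPSC and 3.94 and 4.71 FPKM in mESC, with Zscan4f at 1.33 and 1.86 FPKM in riPSC and 0.247 and 0.453 FPKM in mESC. These levels are low against the 1 FPKM added before the log, and a pseudocount of 0.1 gave 7 calls, Zscan4a to Zscan4f and Tmem92 (1.03 to 1.93). Zscan4f also passed 2-fold without riPSC replicate 1 (1.08) or without mESC replicate 2 (1.05).

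Several of the largest differences lay in genes with near-identical copies, between which short reads can be split differently. Of the 500 called genes 101 (20.2%) had a copy of at least 95% identity over at least 80% of the transcript, against 13.7% of all genes tested. Leaving out small RNAs, 90 remained, and the level summed over copies differed at least 2-fold in the same direction for 37 of them and not for 53. Ftl2-ps, a processed pseudogene of the ferritin light chain, was listed at 0 in both riPSC libraries and measured 1050.6 and 1206.6 FPKM in mESC, while its parent Ftl1 measured 3071 and 3276 FPKM in riPSC and 1524 and 1644 FPKM in mESC. Summed over copies the ferritin light chain differed by 0.12. Gm10260, a copy of the ribosomal protein gene Rps18, measured 725.5 and 726 FPKM in riPSC and 28.1 and 26.9 FPKM in mESC, with a summed difference of 0.20. For Rps26-ps1 the summed difference was 0.01, for Rpl34 -0.15, for Gm15772 with Rpl26 0.35 and for Rps3a1 -0.09. Genes whose summed level kept a difference of at least 2-fold included Fabp3, a fatty acid binding protein, at 235 and 233 FPKM in riPSC and 64.5 and 64.9 FPKM in mESC, the lipid peroxide reductase Gpx4 (summed difference 1.08) and the meiotic kinase Aurkc (1.64), which were all chosen after their values were seen. The call of Gpx4 itself was lost without riPSC replicate 2 (0.994) or without mESC replicate 1 (0.961).

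Nnt, the mitochondrial transhydrogenase that supplies NADPH, appears under 2 overlapping identifiers on chromosome 13. ENSMUSG00000116207 measured 9.89 and 11.2 FPKM in riPSC and was listed at 0 in both mESC libraries, and ENSMUSG00000025453 measured 0.761 and 0.755 FPKM in riPSC and 6.998 and 6.51 FPKM in mESC. Their sum was 10.7 and 11.9 FPKM in riPSC and 6.998 and 6.51 FPKM in mESC, a difference of 0.66. Across the series the first identifier was listed at 0 in both D0 libraries, both mESC libraries and 1 of the 2 D4 libraries, and measured 3.87 to 14.3 FPKM in the remaining ones. The call of ENSMUSG00000025453 was lost without any 1 of the 4 libraries.

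Differences also ran along chromosomes. Windows of 15 consecutive protein-coding genes with a mean of at least 5 FPKM, a rule chosen after the values were seen and given with no test, had medians from -0.74 to 0.71 over 7553 windows, with the 1st and 99th percentiles at -0.31 and 0.35. Overlapping windows past 0.45 in either direction merged into 7 runs. Runs and their most extreme windows were picked by these same differences, so the shared direction and calls within them are not independent of that choice. Of the genes in the windows 2.49% were called, and of those in runs 11.8%. Among all 16439 genes tested, 4343 lay below mESC in both riPSC libraries and 5443 above. The run with the lowest window, on chromosome 2 from 132263148 to 150771675, held 29 genes, of which 19 were lower, with a median of -0.48. In the lowest window itself, from 140170649 to 147078000 (mm10), all 15 genes from Ndufaf5 to Xrn2 were below mESC in both riPSC libraries and 4 were called lower (Dstn, Dtd1, Naa20 and Crnkl1). Dstn, an actin-depolymerising factor, measured 94.3 and 98.8 FPKM in riPSC and 209.6 and 248 FPKM in mESC. The calls of Dtd1 (-0.963) and Crnkl1 (-0.927) were lost without mESC replicate 2, and that of Naa20 without any 1 of the 4 libraries. Relative to D12 the median of that window was 0.50 in riPSC and 1.2 in mESC (0.52 and 1.07 over the whole run), where all genes in the windows had 0.36 and 0.31.

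On chromosome 12 the run from 103434211 to 112615557 held 34 genes, of which 32 were higher, with a median of 0.52, 2 called higher (Ifi27 and Mok) and 1 called lower (Inf2, chosen after its values were seen). In its highest window, from 108792973 to 111683902, all 15 genes from Yy1 to Trmt61a were above mESC in both riPSC libraries, with a median of 0.71 and 1 called, Mok (1.27). It includes Hsp90aa1, a chaperone, at 0.89, and the span also covers Meg3 and Rian, described above. Relative to D12 the window's median was 0.34 in riPSC and -0.20 in mESC (0.16 and -0.18 over the run). On chromosome 14 the run from 77820681 to 118706219 held 23 genes, of which 15 were lower, with a median of -0.33 and 1 called higher, Gpr180, whose call was lost without riPSC replicate 1 (1.06), riPSC replicate 2 (0.94) or mESC replicate 1 (0.72). In its lowest window, from 79587691 to 105896819, 14 of 15 genes from Sugt1 to Spry2 were lower, with a median of -0.66 and 4 called (Bora, Dis3, Uchl3 and Lmo7). Relative to D12 that window's median was 0.66 in riPSC and 0.96 in mESC, where all genes in the windows had 0.36 and 0.31. Lmo7, a protein of cell junctions, measured 2.91 and 2.80 FPKM in riPSC and 9.54 and 9.33 FPKM in mESC. The call of Uchl3 was lost without any 1 of the 4 libraries, and that of Bora without riPSC replicate 1 (-1.13), without riPSC replicate 2 (-1.13) or without mESC replicate 2 (-1.06). A window of zinc finger genes on chromosome 4 from Zfp987 to Zfp534 had a median of 0.48 with 14 of 15 genes higher, and most of these genes have a near-identical copy. DNA copy number was not analysed here. By whole chromosome, the X held 18 higher and 4 lower of 582 tested genes (3.09% and 0.687%), against 1.84% and 1.2% of all genes. The higher share was not largest on the X, as it was 3.46% on chromosome 13, 2.9% on chromosome 7 and 2.82% on chromosome 14. None of the 11 tested genes of the Y was called by limma.

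**Figure D5:**
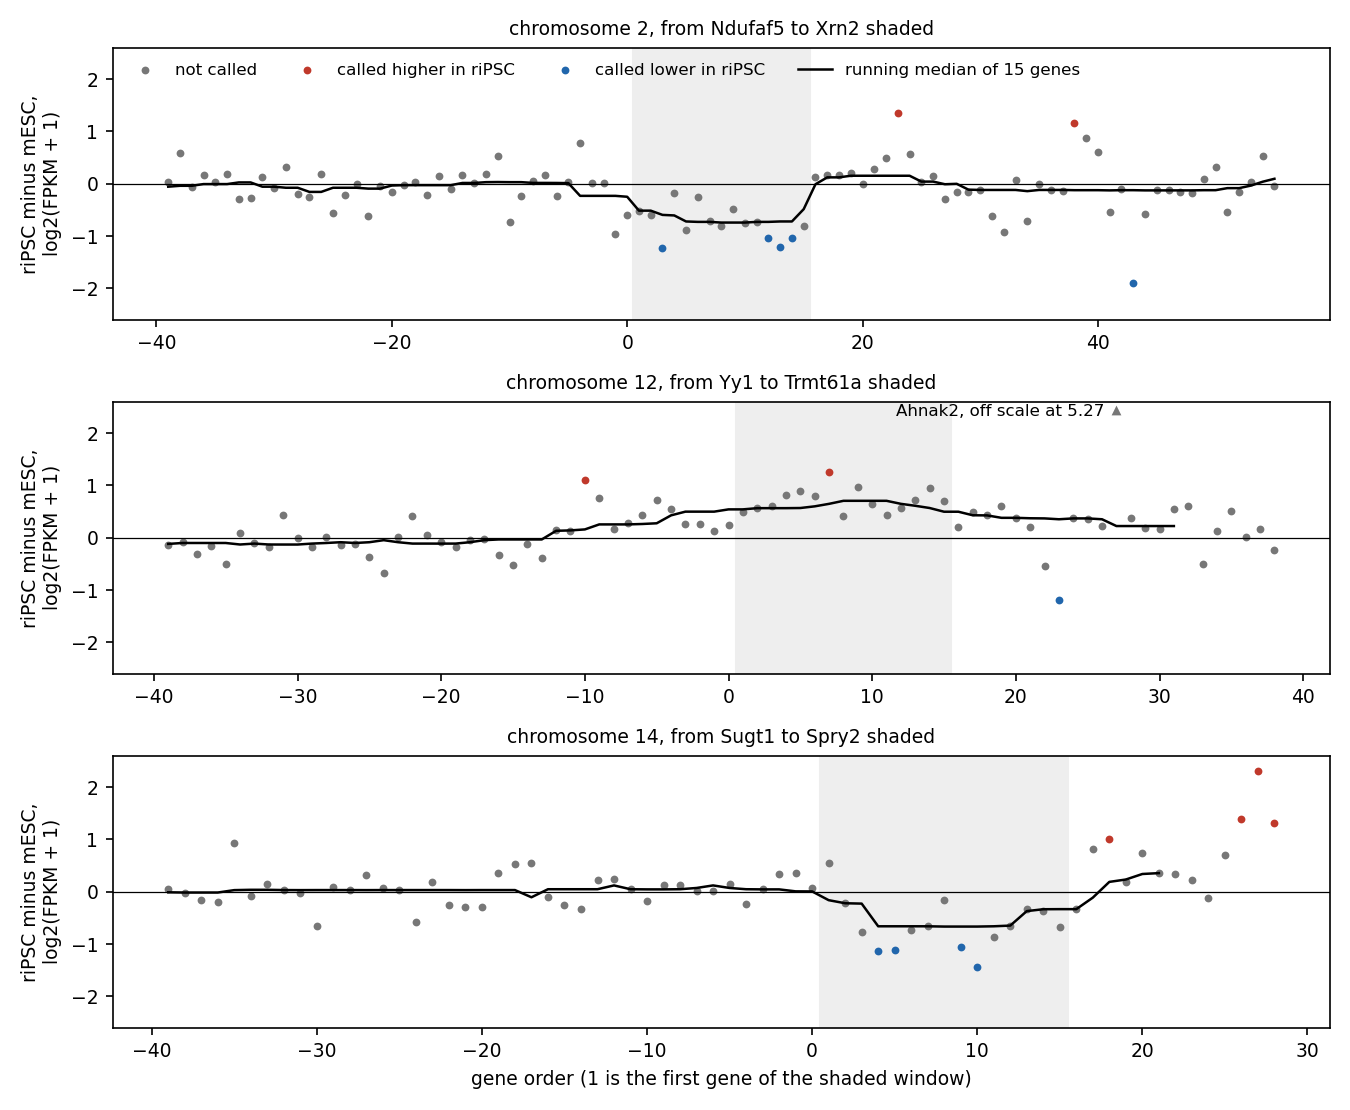
The log2 difference riPSC minus mESC of protein-coding genes in their order along chromosomes 2, 12 and 14, with called genes coloured and the running median of 15 genes as a line. The shaded 15-gene windows, the most extreme of their runs, have medians of -0.74, 0.71 and -0.66. A triangle marks Ahnak2, off scale at 5.27 and not called, which measured 1.80 and 1710 FPKM in the riPSC libraries.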

How the data were processed

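RNA was sequenced as 150 bp reads, per the labels' protocols. Per the submitters' processing notes the tools were fastp 0.20.1, HISAT2 2.2.1 and StringTie 2.0, with mm10 as the genome build. The annotation release and the counting settings are not given in the sources used here. The deposited values, 1 per gene and library, were taken as FPKM from their sums and from their steps in single-exon genes. Those steps also gave the depth estimates. Of 55401 identifiers in the authors' files, 55141 had a symbol in GENCODE M21 (GRCm38), which also gave coordinates.

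Groups came from the sample titles. The tested genes reached 1 FPKM in 2 or more of the 18 libraries, and their levels entered the model as log2(FPKM + 1). The model was limma 3.58.1 in R 4.3.3, with a mean for each of the 9 groups estimated from the 18 libraries together, which leaves 9 residual degrees of freedom, and eBayes without a trend. Tests were two-sided, with Benjamini-Hochberg adjustment of p over 16439 genes. Calls needed an adjusted p under 0.05 and at least 2-fold. The fit was tested on simulated data. Near-identical copies were found with blastn 2.17.0 among annotated transcripts. Promoters came from RefSeq.

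The members, the 34 gene lists and the rule for named genes were chosen with earlier results of these data known. The rule takes the 15 highest and 15 lowest called differences with a mean of at least 10 FPKM in the higher group, the 5 most abundant called genes each way, as many as 6 called genes from a list, any member given as not called and a fixed set of pluripotency, imprinted, sex-linked and signalling genes. Not every gene it takes is printed. Alternatives changed the pseudocount, filter, scaling, eBayes trend, libraries in the fit, replicate block and fold threshold, or left out each library. A fit without near-identical copies was added after the data were seen.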

Additional observations from a re-analysis of the deposited data

How the results depend on the processing

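The count of 500 called genes (303 higher, 197 lower) depended on the scale and the fold limit: it was 901 (518 and 383) with a pseudocount of 0.1, 127 (78 and 49) with 5, 2076 (1225 and 851) without a fold threshold and 62 (41 and 21) at 4-fold. With a filter of 5 FPKM 201 genes were higher, where fewer genes were tested. Leaving out 1 library in turn gave 446 to 491 genes, 255 to 337 higher and 154 to 202 lower. Without near-identical copies 400 were called. The replicate numbers of the titles are not known to pair samples (their deviations correlated at 0.154 over 2 pairs): with the replicate block in the fit of all 18 libraries 497 genes were called, 496 of them among the 500, and with the block in the fit of the 4 libraries, which leaves 1 residual degree of freedom, limma called 0 genes, 0 higher and 0 lower, with 6086 at an unadjusted p under 0.05. The higher share of calls ranged from 53.9% (quantile normalization) to 68.6% (without mESC replicate 2), against 60.6%. Of 127 named genes called, 87 kept the call in every setting other than the 4-library block, the 4-fold limit and the pseudocount of 5, under which 51 lost it, and 31 lost it when 1 library was left out. No difference of a named called gene reversed. Depth limits low genes most, since at 18 to 19.7 M read pairs levels near 0.1 FPKM rest on few reads.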
